A study of Rattus norvegicus with 20 samples.

Results

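Genes that mark endothelial cells or encode endothelial receptors were followed in ventricular samples from a failed and a normal rat heart. They were Vwf, Emcn, Pecam1, Cdh5, Kdr, Flt1, Tek, Tie1, Eng and Plxnd1, taken by name as all probe sets that the array annotation assigns to a single one of these symbols. The rule found 12 probe sets of 9 of the 10 genes, among 20826 probe sets of a single gene and 31099 in all. Flt1 had 3 probe sets, Kdr had 2 and the others 1 each. Cdh5, the cadherin of endothelial junctions, is not listed under a probe set in the annotation used here and was not analysed here.

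The hearts came from Dahl rats, whose lines were bred for their sensitivity to salt in the diet. The failed heart is labelled as congestive heart failure (CHF), with a high-sodium diet named only for the mRNA sample. All samples are labelled 19 weeks old except the normal sample for acetylated histone H4, whose label gives no age. Each heart was measured on 10 Affymetrix Rat Genome 230 2.0 arrays: mRNA, genomic DNA from before immunoprecipitation (pre-IP), and immunoprecipitated chromatin (ChIP) of 8 marks. These were acetylation of histones H3 and H4 (H3ac and H4ac), and methylation of lysines K4 (K4me2, K4me3), K9 (K9me2, K9me3), K20 (K20me3) and K27 (K27me2) of a histone the labels leave unnamed. With 1 array per assay and heart, and a single ventricle per experiment, no difference below has a replicate check, an error or a p-value. The diet, the disease and the individual animal cannot be told apart. The probes were designed on transcripts, so a ChIP value describes the DNA under those probes and not a promoter.

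Endothelial cells line the vessels, and in heart muscle they are very numerous because nearly every myocyte is next to a capillary. Vascular endothelial growth factors act through the receptor tyrosine kinases encoded by Kdr and Flt1: the first carries most of the growth signal, and the second binds ligand tightly and can act as a decoy. Angiopoietins act through the receptor encoded by Tek, whose relative Tie1 modulates it, and stabilise vessels. Endoglin, from Eng, is a co-receptor for ligands of the BMP and TGF-beta family, and plexin D1, from Plxnd1, is a receptor for semaphorins that guides and restrains sprouting vessels. Von Willebrand factor, from Vwf, tethers platelets, and endomucin (Emcn) and the junctional adhesion molecule PECAM-1 (Pecam1) sit on the endothelial surface. In general, acetylation and K4 methylation are found at active genes and K9 methylation at silent chromatin.

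Start regions of these genes differ in base composition, and the sequences of 3 are shown because they span that range. RefSeq windows from 250 bases before to 50 after an annotated start, on build GRCr8, were given for 6 of the genes: Emcn, Kdr, Flt1, Tie1, Eng and Plxnd1. Capitals mark GGAAG or its reverse complement, the core of sites for ETS factors, many of which act in endothelium. No array value below is a measurement of these windows. The windows of Plxnd1 (chr4:150715138-150715437, minus strand), Kdr (chr14:32571813-32572112, plus strand) and Emcn (chr2:228564289-228564588, plus strand) read as follows.
Plxnd1: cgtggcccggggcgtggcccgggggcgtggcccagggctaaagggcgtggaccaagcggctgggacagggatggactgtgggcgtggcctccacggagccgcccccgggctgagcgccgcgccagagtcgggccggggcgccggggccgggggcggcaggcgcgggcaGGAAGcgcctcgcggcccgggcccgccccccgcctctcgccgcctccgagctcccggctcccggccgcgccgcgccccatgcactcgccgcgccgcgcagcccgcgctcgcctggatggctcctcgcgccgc
Kdr: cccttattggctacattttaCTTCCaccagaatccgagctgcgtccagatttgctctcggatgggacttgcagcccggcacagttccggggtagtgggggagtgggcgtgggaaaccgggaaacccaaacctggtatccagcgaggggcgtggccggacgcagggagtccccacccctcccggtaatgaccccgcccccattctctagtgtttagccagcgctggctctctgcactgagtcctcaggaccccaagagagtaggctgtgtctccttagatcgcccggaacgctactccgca
Emcn: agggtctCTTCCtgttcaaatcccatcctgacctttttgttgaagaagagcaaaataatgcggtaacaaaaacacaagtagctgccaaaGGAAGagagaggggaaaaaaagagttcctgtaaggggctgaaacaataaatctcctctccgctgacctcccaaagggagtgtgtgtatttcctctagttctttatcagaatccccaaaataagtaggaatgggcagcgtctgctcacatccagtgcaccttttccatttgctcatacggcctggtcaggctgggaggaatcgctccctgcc

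The Plxnd1 window held 48 CpG dinucleotides and 83.0% G and C, and 1.04% of all 33469 windows of that length held as many CpG. Kdr had 18 and Emcn 5, against a median of 7 over all windows. Flt1 had 31, Eng 13 and Tie1 10. GGAAG on either strand was found in 6 of the 6 windows, as it was in 70.1% of all windows, with 3 matches in Flt1 and Tie1, 2 in Emcn and Eng and 1 in Kdr and Plxnd1. GATAA, the core bound by GATA factors, was searched on both strands as well and was found in 1 of the 6, Emcn, against 26.5% of all windows. The reverse complements of these motifs can overlap by a base at their ends. A match is a description of letters and not a binding site.

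Levels are intensities rescaled so that the median of each array is 100, with values under 10 set to 10. Of the 240 values of the 12 probe sets, 5 lay under that floor, all at the Flt1 probe set 1377113_at. A difference is the log2 value of the failed heart minus that of the normal one, so that 1 is 2-fold. A difference was counted when it reached 2-fold in size at a probe set whose mean log2 level on those arrays was no lower than the median of this mean over all probe sets (the level filter). For mRNA, 10 of the 12 passed, at least 1 for each of the 9 genes. Defining endothelial genes were thus measurable in a sample that the labels call left ventricular myocytes. RNA control probe sets had 3′ to 5′ ratios of 11.3 (normal) and 22.6 (failed) for GAPDH and of 18.2 and 12.4 for beta-actin. Their part in the mRNA differences was not tested.

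Among the mRNA values, Plxnd1 was much lower in the failed heart, Vwf and Eng were about 2-fold higher, and the main probe sets of Kdr, Flt1, Tie1 and Emcn were moderately lower. Plxnd1 stood at 975 in the normal heart and 171 in the failed one. That is a difference of -2.51, or 5.69-fold lower, and 0.0343% of the probe sets passing the filter lay as low or lower. It stayed past 2-fold under the other scalings, at -2.78 with values as deposited and -2.73 after quantile normalization. In a bulk sample, fewer cells of a type and less RNA per cell cannot be told apart, and neither was tested. The 29 probe sets of other endothelial markers that passed the filter had a median of -0.028 and a lowest value of -0.80. Below the filter, the lowest probe set of that list was at -3.28. Vwf stood at 945 in the normal heart and 2115 in the failed one, a difference of 1.16 that lay under 2-fold as deposited, at 0.90, and after quantile normalization, at 0.76. Eng stood at 814 and 1622, a difference of 0.995 just short of 2-fold, which was 0.73 as deposited and 0.61 with quantile normalization. Vwf and Eng were thus on the high side in the failed heart under each of these 3 scalings, but whether they reached 2-fold depended on the scaling.

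Of the other surface markers, one was lower in the failed heart and one nearly level. Emcn had 2336 in the normal heart and 1421 in the failed one, a difference of -0.72 that passed 2-fold, at -1.21, only with quantile normalization. Pecam1 had 338 and 406, a difference of 0.26 that was 0.061 with quantile normalization and turned just below 0 as deposited.

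For the VEGF receptors the answer depended on the probe set. The brighter Kdr probe set, 1367948_a_at, had 3361 in the normal heart and 2320 in the failed one, a difference of -0.54, which was -0.80 as deposited and -1.14 with quantile normalization. The dim one, 1397868_at, went the other way, from 14.5 to 63.2, a difference of 2.12 below the level filter that shrank to 0.34 with the floor at 50. Averaged over the pair, Kdr differed by 0.79, so its direction depended on how the probe sets were combined. Flt1 had 403 and 262 at 1377113_at, its brightest probe set, a difference of -0.62. Its probe set 1369087_at had 81.4 and 27.8, a difference of -1.55 below the level filter, and 1370492_a_at had 85.9 and 116, a difference of 0.43. Of the 5 receptor probe sets, 3 were thus lower and 2 higher in the failed heart, with the same signs as deposited and with quantile normalization. Which transcripts each probe set detects was not examined.

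The Tie receptors differed modestly in the failed heart. Tek had 3717 in the normal heart and 4103 in the failed one, a difference of 0.14 that became -0.12 as deposited and -0.48 with quantile normalization, so its direction is not settled. Tie1 had 1087 and 739, a difference of -0.56 that kept its sign at -0.82 and -0.91 under those scalings.

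**Figure D1:**
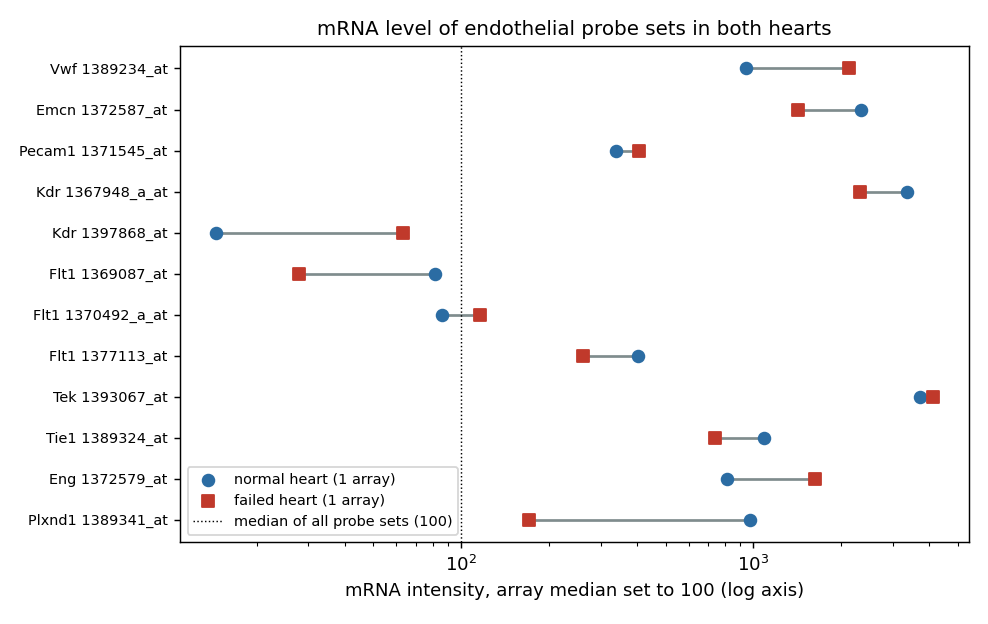
mRNA intensity of each endothelial probe set (rows) in the normal (circles) and the failed heart (squares), 1 array each, on a log axis with the array median set to 100. Plxnd1 stood at 975 and 171, Vwf and Eng lay higher in the failed heart, and the 2 Kdr probe sets lay in opposite order.

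**Figure D2:**
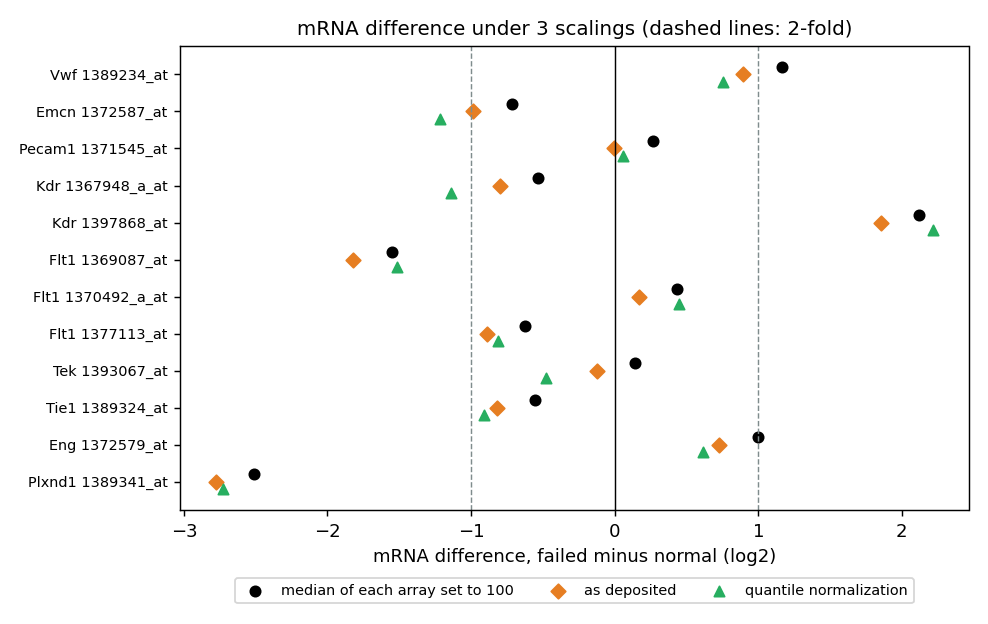
mRNA difference (failed minus normal, log2) of each probe set with the array median set to 100, as deposited and after quantile normalization; dashed lines mark 2-fold. Plxnd1 lay beyond 2-fold lower under all 3, Vwf beyond 2-fold higher under the first alone, and Tek crossed 0.

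Counted together, as many endothelial probe sets were higher as lower. Of the 10 passing the filter, 1 (Vwf) was at least 2-fold higher and 1 (Plxnd1) at least 2-fold lower, while 8 lay in between. Over all probe sets of a single gene that passed, 11.7% were higher and 3.39% lower by that much. A count of 1 of 10 in either direction is too small to set apart from those shares. The median over all 12 was -0.20, against 0.11 over all probe sets of a single gene. It was -0.46 as deposited and -0.65 with quantile normalization, where the medians over all probe sets of a single gene were -0.11 and 0. Quantile normalization counted 0 higher and 3 lower (Plxnd1, Emcn and the brighter Kdr probe set), and values as deposited 0 higher and 1 lower.

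Other endothelial genes were close to the same level in both hearts. The list held 24 markers, of which 22 were measured by 39 probe sets, and 29 probe sets passed the filter. Of these 0 were 2-fold higher and 0 lower, against 11.7% and 3.39% of all, and their median was -0.028. The 2 highest were Ramp2, an accessory protein of the adrenomedullin receptor, at 0.49 and a probe set of Rasip1, a vascular Ras-interacting protein, at 0.45. At the low end were a probe set of Icam2, an endothelial adhesion molecule, at -0.80 and the protein C receptor gene Procr at -0.77. With other scalings 0 were higher and 2 lower, with medians of -0.29 as deposited and -0.40 after quantile normalization. The -2.51 of Plxnd1, the 1.16 of Vwf and the 0.995 of Eng lay outside the range of these 29 probe sets.

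Genes around the receptors were counted from lists of ligands and partners. Over all probe sets of a single gene that passed the filter, 11.7% were 2-fold higher and 3.39% lower. In the VEGF list, 7 probe sets passed, 0 were higher and 2 were lower, both of Vegfa, the main ligand of Kdr. One Vegfa probe set had 6851 in the normal heart and 2257 in the failed one, a difference of -1.60, and the other 1012 and 416, a difference of -1.28. Vegfc, the ligand of lymphatic vessels, differed by 0.57 and a probe set of the co-receptor gene Nrp1 by 0.094. The median of this list was -0.46, and it was -0.73 as deposited and -1.06 with quantile normalization, where 3 and 4 were lower. In the angiopoietin and Tie list, 0 of 7 were past 2-fold, between -0.65 and 0.91, both at probe sets of the flow-responsive factor gene Klf2. Ptprb, the phosphatase that acts on the receptor from Tek, differed by 0.36 at its higher probe set, and the antagonist ligand gene Angpt2 by -0.53.

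In the endoglin list, 0 of 9 were past 2-fold. The BMP target Id1 at 0.80 and the receptor gene Bmpr2 at 0.73 were the highest, and Acvrl1, the ALK1 receptor that works with endoglin, was the lowest at -0.67. In the semaphorin and plexin list, 1 of 10 was higher, the ligand gene Sema3c at 1.84, and 0 were lower, although 4 were lower as deposited and with quantile normalization. Sema4a at -0.96 and Nrp2 at -0.91 were the lowest, so no other plexin or neuropilin probe set in this list differed by as much as Plxnd1 among those passing. In the junction list, 1 of 16 was higher, the phosphatase gene Ptpn11 at 1.38, and 1 lower, Jam3 at -1.14. In the list of Weibel-Palade body and adhesion genes, 1 of 7 was higher, the granule membrane gene Cd63 at 1.38, which is also common in other cells. With quantile normalization 0 were higher in either of these lists. Beside 11.7% higher and 3.39% lower of all, a count of 1 in a list is too small to set apart from those shares. The leukocyte adhesion gene Icam1, chosen after its values were seen, went from 12.8 to 347 and so stood below the level filter.

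Markers of other cells also differed between these mRNA arrays. Their counts stand beside 11.7% 2-fold higher and 3.39% lower of all probe sets of a single gene that passed. The summed level of 8 fibroblast probe sets was 17558 in the normal heart and 36111 in the failed one, with 4 of 8 higher by 2-fold, 3 as deposited and 2 with quantile normalization. For 8 macrophage probe sets the sums were 2686 and 10331, a rise mostly from Lyz2, at 1325 and 7658. Of 6 passing, 2 were higher, the median was 0.88 and the lowest was Ptprc at -0.22. Endoglin is also made by fibroblasts and macrophages and Pecam1 by leukocytes and platelets, as background. Platelet probe sets, which bear on Vwf, summed to 921 and 1151, with 0 of 2 passing past 2-fold. Of these 4 probe sets, only that of Pf4 was higher in the failed heart, at 674 and 1013. Their median difference was -0.67, with probe sets below the filter included. Smooth muscle and pericyte probe sets summed to 12814 and 9033, with 5 of 12 lower, and cardiomyocyte probe sets to 106607 and 111496, with 2 of 9 higher and 2 lower. In the lymphatic list, 2 of 4 were higher, both of Lyve1, a receptor that macrophages also carry, at 2.06 and 1.64, while Prox1, the factor that defines lymphatic cells, differed by 0.40. None of the probe sets in these 6 lists lay at the floor in both hearts. The part of these cells in the endothelial values was not tested.

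**Figure D3:**
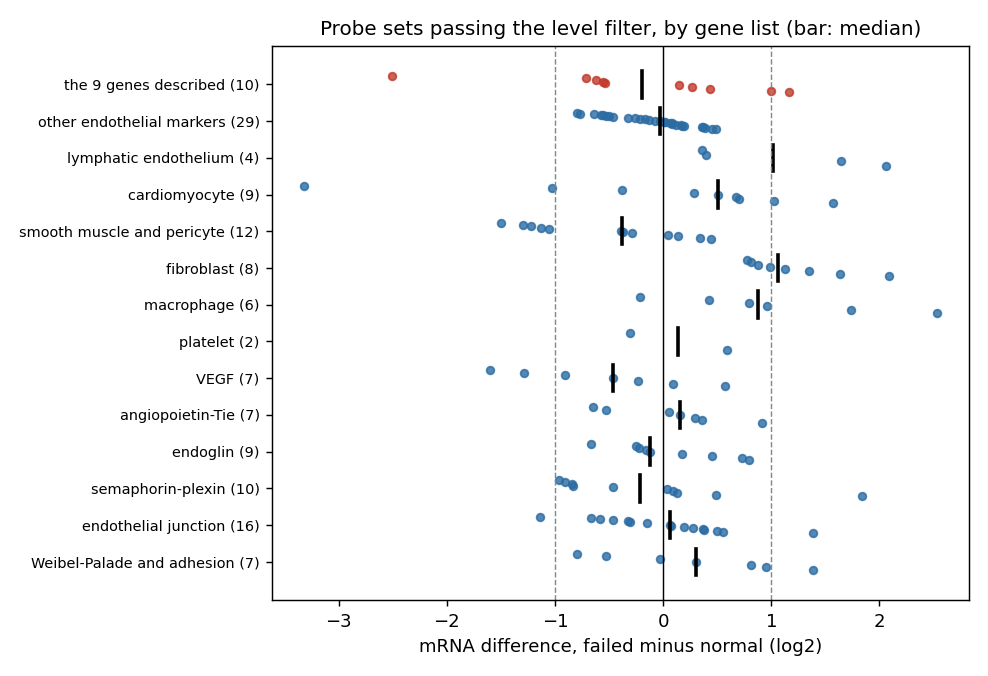
mRNA difference (failed minus normal, log2) of each probe set passing the level filter, for the 9 genes described and for 13 gene lists; bars are medians, dashed lines 2-fold, and numbers in brackets count probe sets. The 29 probe sets of other endothelial markers lay between -0.80 and 0.49, while Plxnd1 at -2.51, Vwf at 1.16 and Eng at 0.995 lay outside them.

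Enrichment of a mark was its log2 ChIP level less the log2 pre-IP level of that heart. In both hearts the endothelial probe sets lay mostly above 0 for acetylation and K4me2 and below 0 for K20me3 and K27me2. The H3ac median was 0.71 (normal) and 0.57 (failed), the H4ac median 0.52 and 0.21 and the K4me2 median 0.44 and 0.55. H3ac was above 0 in both hearts at 6 of 12, H4ac at 7 and K4me2 at 6, against 37.3%, 38.2% and 36.3% of all probe sets of a single gene. These medians depended on the scaling. As deposited they were 0.36 and 0.18 for H3ac, 0.26 and -0.0071 for H4ac and -0.014 and -0.13 for K4me2. For K20me3 the medians were -0.39 and -0.34 and for K27me2 -0.47 and -0.96, with 7 of 12 below 0 in both hearts for each mark, against 32.5% and 34.1% of all. K4me3 had medians of 0.38 and 0.046, K9me2 of 0.097 and -0.79 and K9me3 of 0.66 and -0.15. K9me3 was above 0 in both hearts at 3 of 12, against 31.2% of all. With so few probe sets, of which Kdr gave 2 and Flt1 3, none of these shares can be set apart from the background. These counts took in all 12 probe sets, of which 7 passed the level filter for H3ac, 7 for H4ac and 6 for K4me2.

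Within the group, Pecam1 carried the strongest acetylation. Its H3ac enrichment was 1.90 (normal) and 1.84 (failed), its H4ac enrichment 1.77 and 1.21 and its K4me2 enrichment 1.72 and 1.77. For these 3 marks it thus stood well above 0 in both hearts. Both Kdr probe sets were also above 0 for these 3 marks in each heart: at 1367948_a_at H3ac was 0.75 and 1.07, and at 1397868_at it was 1.60 and 0.49. Plxnd1 had H3ac of 1.21 and 0.65, H4ac of 1.04 and 0.69 and K4me2 of 0.97 and 1.23, so these marks were above 0 also in the heart with the lower mRNA level, 171, which was above the array median of 100. Emcn was unlike these. It had K9me2 of 1.95 and 1.33 and K9me3 of 1.17 and 0.85, while its H3ac was -0.023 and -1.20, although its mRNA stood far above the array median in both hearts. Vwf too had K9me2 above 0, at 0.82 and 1.35, and Tek at 1.04 and 1.54. Pecam1, at -1.20 and -1.81, Tie1, at -1.15 and -2.55, and Plxnd1, at -2.69 and -1.30, had it well below 0. The K9me2 values of Tie1 lay below the level filter, with ChIP levels of 26 and 12.5, near the floor. The K9me3 and H3ac values of Emcn also lay below that filter.

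**Figure D4:**
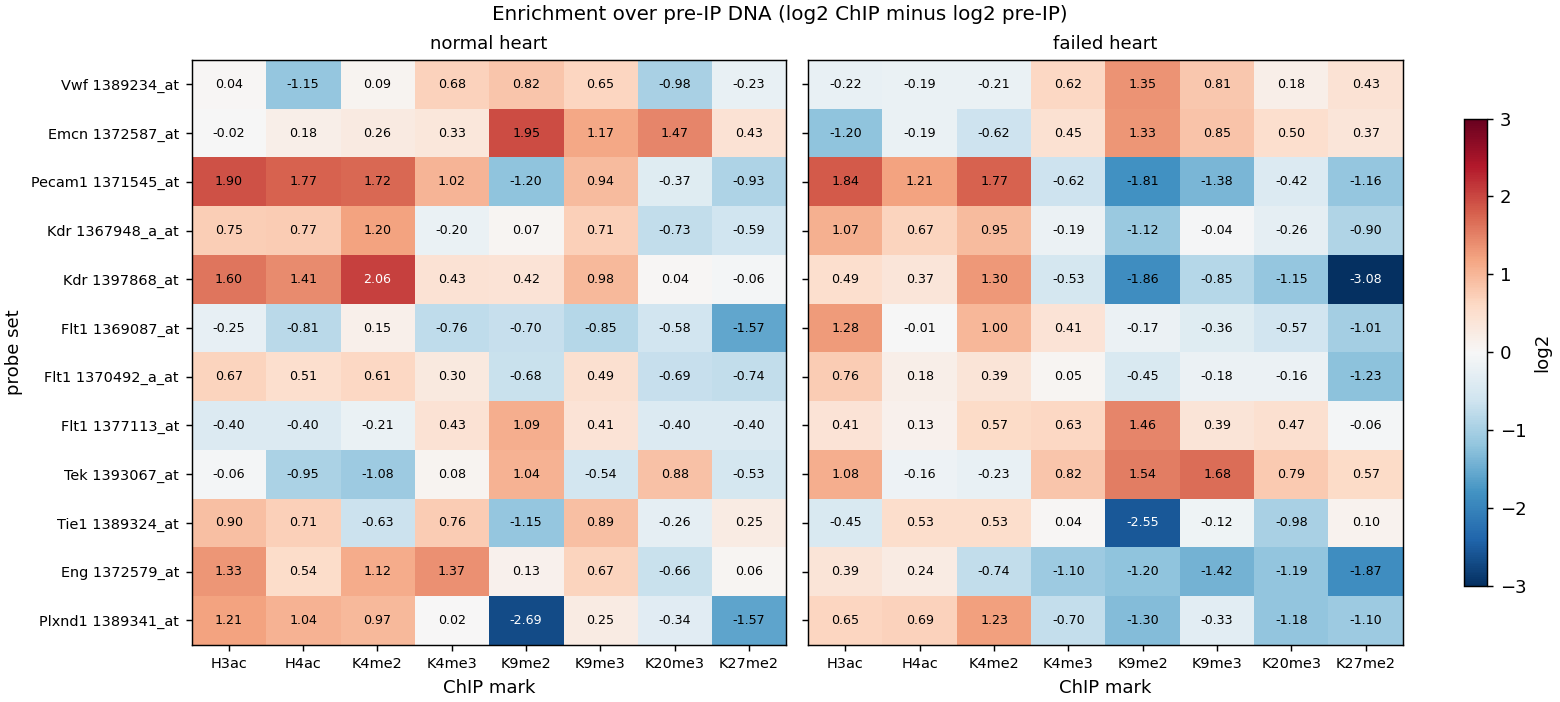
Enrichment over pre-IP DNA (log2) of 8 marks (columns) at each endothelial probe set (rows), in the normal (left) and the failed heart (right), 1 array each. Pecam1 was high in H3ac, H4ac and K4me2 in both hearts, while Emcn, Vwf and Tek were high in K9me2.

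Pre-IP DNA, which has no antibody step, gave the spread to be seen between 2 DNA arrays. Of the 6 endothelial probe sets that passed the filter there, 0 were 2-fold higher and 0 lower, against 3.93% and 3.75% of all. Eng was the exception among the dimmer ones. Its pre-IP value was 48.2 (normal) and 171 (failed), a difference of 1.83, and every enrichment difference of Eng carries that value with the opposite sign. Those differences were below 0 for 8 of 8 marks, with K4me3 at -2.47, K9me3 at -2.09 and K27me2 at -1.93, all below the level filter. On the ChIP arrays alone they were -0.64, -0.26 and -0.10, and H4ac and K20me3 were higher by 1.53 and 1.30. At Eng the direction for H3ac, H4ac, K9me2 and K20me3 therefore depended on its pre-IP value, as did the size for the other marks.

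Over the 8 marks, 53 of 96 values passed the level filter, and 3 of these were 2-fold higher and 8 lower in the failed heart, 5.66% and 15.1%. The count of lower values depended on the processing: it was 13 with quantile normalization, 5 without pre-IP, 5 with the probe sets of a gene averaged, 3 with 1 probe set per gene and 18 without the level filter. The count of higher values was 3 with quantile normalization and without pre-IP, 1 with either way of taking 1 value per gene and 8 without the level filter. For H3ac, 1 of 7 was higher and 1 lower, against 10.9% and 8.53% of all. H4ac had 0 higher and 1 lower of 7, against 4.91% and 6.31%. K4me2 had 0 of 6 in either direction, against 11.8% and 6.31%. K4me3 had 1 higher and 1 lower of 6, against 9.17% and 9.98%. K9me2 had 1 higher and 2 lower of 9, against 16% and 9.43%, and K9me3 had 0 higher and 2 lower of 6, against 8.98% and 12.2%. K20me3 had 0 higher and 1 lower of 7, against 8.74% and 8.56%, and K27me2 had 0 of 5 in either direction, against 6.82% and 6.15%. With so few probe sets per mark, none of these shares can be set apart from the background.

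The 8 lower values came from 2 genes. Kdr at 1397868_at gave 5 of them: K9me2 went from 0.42 in the normal to -1.86 in the failed heart, a difference of -2.27, K9me3 differed by -1.83, K20me3 by -1.19, H3ac by -1.10 and H4ac by -1.04. These values share its pre-IP difference of 0.75. On the ChIP arrays alone the last 3 were under 2-fold, at -0.45 for K20me3, -0.36 for H3ac and -0.29 for H4ac, and H4ac was also just under 2-fold as deposited, at -0.99. Below the level filter, K27me2 at 1397868_at differed by -3.02, which was -2.27 without pre-IP and -1.77 with the floor at 50. No mark difference of this probe set lay above 0, for acetylation or methylation. The brighter Kdr probe set was lower for K9me2 too, from 0.065 to -1.12, a difference of -1.19, and differed by -0.75 for K9me3. On the ChIP arrays alone the K9me2 differences were -1.51 and -1.53 and the K9me3 differences -1.07 and -1.08, so the pair of Kdr probe sets were lower in both K9 marks with and without pre-IP. Pecam1 gave the other 2 lower values. Its K9me3 went from 0.94 to -1.38, a difference of -2.32, and its K4me3 from 1.02 to -0.62, a difference of -1.64, while its H3ac and K4me2 differed by -0.061 and 0.048. On the ChIP arrays alone the differences were -1.69 for K9me3, -1.01 for K4me3, 0.57 for H3ac and 0.68 for K4me2.

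The 3 higher values belonged to Plxnd1 and Flt1. Plxnd1 had less depletion of K9me2 in the failed heart, -1.30 against -2.69, a difference of 1.39 that was 1.76 without pre-IP and 0.98 with the floor at 50. Its H3ac and H4ac differed by -0.55 and -0.35, less than 2-fold. Flt1 at 1369087_at had H3ac of -0.25 (normal) and 1.28 (failed), a difference of 1.54, and K4me3 of -0.76 and 0.41, a difference of 1.17 that was 0.89 without pre-IP. Its probe set 1370492_a_at differed by 0.090 for H3ac and by -0.24 for K4me3, so the K4me3 difference did not recur there.

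Tek and Tie1, relatives in one receptor family, lay on opposite sides. Tek differed above 0 for 7 of 8 marks, with K9me3 at 2.23 and H3ac at 1.14, and Tie1 for 1 of 8, K4me2 at 1.17, with K9me2 at -1.39 and H3ac at -1.35. The 5 values just given were below the level filter, and K9me2 at Tie1 was -0.34 with the floor at 50. The pre-IP differences were also opposite, -0.49 for Tek and 0.34 for Tie1, and on the ChIP arrays alone Tie1 was above 0 for 3 of 8 marks. There K9me3 at Tek differed by 1.73 and H3ac at Tie1 by -1.01. Emcn differed by -1.18 for H3ac, which was -0.46 without pre-IP, and Vwf by 1.16 for K20me3, which was 1.35. Both values were also below the level filter, and that of Vwf was 0.59 with the floor at 50. For K9me3, 9 of the 12 probe sets lay below 0 (one Flt1 probe set crossed 0 under the other scalings), with a median of -0.62 against -0.073 over all probe sets of a single gene. Without pre-IP the median was -0.31. The 39 probe sets of other endothelial markers had a K9me3 median difference of -0.49, with 0 of 26 passing higher and 5 lower, against 8.98% and 12.2% of all. Over the 8 marks the medians of that list lay on both sides of 0, from this value up to 0.27 for K4me2.

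**Figure D5:**
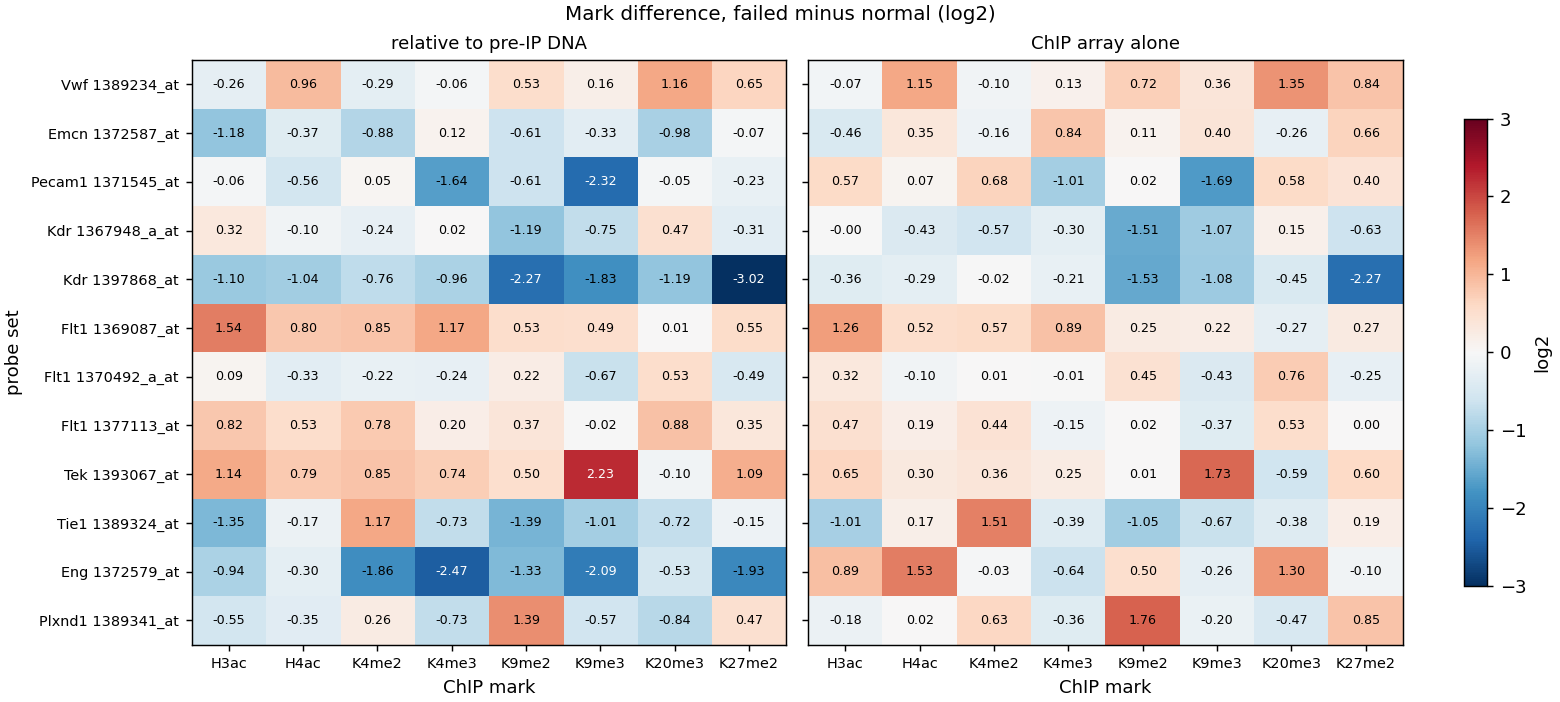
Difference of each mark between the hearts (failed minus normal, log2) at each endothelial probe set, relative to pre-IP DNA (left) and for the ChIP array alone (right). Kdr was lower for K9me2 and K9me3 at both probe sets in both panels, and the low values of Eng on the left were not seen for most marks on the right.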

How the data were processed

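The authors deposited a linear intensity for each probe set and array; how these were summarised and scaled is not given in the sources here. Every array had a mean between 500.03 and 500.17 after 2% of the values at each end were removed. Array medians ran from 189 to 415. Per the labels, RNA was turned into biotin-labelled cDNA, and DNA was amplified by T7 transcription and labelled.

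Arrays were rescaled to medians of 100, floored at 10 and put on a log2 scale (Python 3.11.15, pandas 2.3.3). The floor touched between 2.14% and 11% of an array's probe sets. Probe sets of several genes (436), those not listed (9780) and 57 control probe sets were left out. The number of arrays, 1 per group, limits the precision, and no test was made. The calculation was tested on simulated data.

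The text names all probe sets of the genes studied and, of each list, at most the 2 highest and 2 lowest mRNA differences. Genes and lists were chosen with earlier results of these data known. Lists of 24 other endothelial, 4 lymphatic, 7 cardiomyocyte, 10 smooth muscle and pericyte, 6 fibroblast, 7 macrophage and 5 platelet markers and 6 pathway lists were used. Alternatives were values as deposited, quantile normalization, a floor of 50, a gene's brightest probe set, the mean of its probe sets, no level filter and no pre-IP.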

Additional observations from a re-analysis of the deposited data

How the results depend on the processing

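No paired analysis was possible because there was 1 array per assay and heart, and leaving out a replicate could not be tried for the same reason. A value was taken as moved when it changed by more than the spread of pre-IP differences over all probe sets, an SD of 0.56 for a probe set and 0.20 for a median of 12, or when a count changed by over 1.5 times. Of 120 single values, 118 stayed within that as deposited, 115 with quantile normalization and 110 with the floor at 50, and without pre-IP 64 of 96 did. Values as deposited shift all differences of an assay by the same amount, under that SD, except at the floor. Only values at the floor could thus move there, both of them at Flt1 1377113_at, so the 118 is no check of the single values. Leaving out pre-IP shifts the 8 mark differences of a probe set by its pre-IP difference alone. The 32 values that moved were those of Emcn, Pecam1, Kdr 1397868_at and Eng, whose pre-IP differences were larger than the SD. The 64 is thus no check of the single values either. A floor of 50 can change only differences with a level under 50, so the 110 includes values that could not move. The cause was not tested for the changes below, except where the alternative holds fewer features.

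As deposited, the mRNA median was -0.46 with 0 probe sets 2-fold higher, and the median enrichments in the normal and failed heart were 0.36 and 0.18 for H3ac, 0.26 and -0.0071 for H4ac and -0.014 and -0.13 for K4me2, whose median difference was -0.32. With quantile normalization, the mRNA median was -0.65 with 0 higher and 3 lower, the H3ac enrichments were 0.26 and 0.11, K4me2 in the failed heart was 0.17, and 13 mark differences were 2-fold lower. With the floor at 50, K9me2 in the failed heart was -0.50. With 1 probe set per gene, which takes Kdr and Flt1 from 5 probe sets to 2, the mRNA median was -0.54, the K9me2 median difference -0.61, failed-heart enrichments -1.12 for K9me2 and -0.0595 for K27me2, and 1 mark difference was higher and 3 lower. The lower H3ac and K20me3 of the dim Kdr probe set turned into 0.32 and 0.47, the values of the other. For Flt1 the probe set taken was 1377113_at, whose K27me2 ChIP values lay under the floor in both hearts. The -0.0595 for K27me2 is the value of that probe set and so a bound. With probe sets of a gene averaged, the mRNA median was 0.14, median differences were -0.39 for H3ac, -0.47 for K4me3, -0.61 for K9me2 and -0.36 for K20me3, K9me2 in the failed heart was -1.20, and 1 mark difference was higher and 5 lower. Without the level filter, 2 mRNA values were higher and 2 lower, and 8 mark differences higher and 18 lower. Without pre-IP, 5 mark differences were lower, and median differences were 0.16 for H3ac, 0.18 for H4ac, 0.19 for K4me2, 0.066 for K9me2, -0.31 for K9me3 and 0.23 for K27me2. Levels against the array median in the normal heart were then 0.43 for H3ac, -0.030 for H4ac, 0.15 for K9me3 and 0.38 for K20me3. In the failed heart they were 1.25 for H3ac, 0.78 for H4ac, 0.82 for K4me2, 0.26 for K4me3, 0.20 for K9me2, 0.45 for K9me3, 0.0475 for K20me3 and -0.040 for K27me2.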
